A study of Rattus norvegicus with 18 samples.

Results

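The response shared by rats given any of 3 inhibitors of CDK4 and CDK6 was measured as the difference between 15 treated arrays, in 5 groups of 3, and 3 vehicle arrays. These 18 arrays are all 18 of the series. For each of 14217 genes the mean of the 5 treated group means was set against the vehicle mean, and genes whose 5 group differences all had the same sign were counted. The mucosa of the jejunum, which lies between duodenum and ileum, had been scraped off, and its total RNA was hybridised to Affymetrix rat arrays. The animals were male Sprague Dawley rats, 6 to 8 weeks old, gavaged once a day. In mg/kg/day, the treated groups received palbociclib 30, palbociclib 100, abemaciclib 36, abemaciclib 120 and ribociclib 300, and the control group received 0.5% methyl cellulose. Each group had 3 arrays, with the letters A, B and C. Nothing in the labels ties them to separate animals, so p-values measure the spread between arrays, which may be technical.

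Palbociclib had been given in methyl cellulose too. Abemaciclib and ribociclib had a different vehicle. The effect of those 2 compounds and that of their vehicle therefore cannot be told apart. The design names dosing for 4 or 15 days without saying which applied to an array, and 1 array, abemaciclib 120 replicate B, has a title with the dose 100 beside a treatment label with 120. Expression is given as log2 signal, so a difference of 1 is a 2-fold difference. Array medians lay between 5.41 and 5.51, and a signal below them was not shown to be above background. RNA quality was read from the beta-actin controls as log2 signal at the 3′ end minus that at the 5′ end. This actin difference was 0.86 to 1.05 on the abemaciclib 120 mg/kg/day arrays, 0.40 to 0.90 on the other treated arrays and 0.57 to 0.79 on the vehicle arrays.

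CDK4 and CDK6 pair with D-type cyclins and phosphorylate the retinoblastoma protein, which releases E2F factors and lets a cell pass from G1 into S phase. INK4 proteins, one of which is the product of Cdkn2d, bind the 2 kinases and block them. Jejunal mucosa holds dividing crypt cells, absorptive enterocytes and a dense population of lymphocytes that sit between the epithelial cells and carry cytotoxic granules. Which genes respond to all of these inhibitors, and which respond to some of them, is the question the averaged comparison addresses.

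Averaged over the 5 treated groups, a small set of genes was lower than in vehicle and few were higher. The falling genes included the leukocyte genes Cd244l1, Nkg7, Coro1a and Lck, the CDK4/6 inhibitor gene Cdkn2d, the transcription regulator gene Hexim1 and the death ligand gene Tnfsf10. Among the 8 called genes that rose, Gas2l3, a cytoskeletal linker of dividing cells, had the largest average, 1.86, or 1.05 without vehicle array A. In limma, with 1 mean per group and adjustment over all genes, 130 of 14217 genes (0.914%) passed an adjusted p of 0.05, and they are called changed here. Of these, 122 were lower (0.858% of all genes) and 8 were higher (0.0563%). The median fold of the 122 falling genes was 1.94, and 57 of the 130 changed genes differed at least 2-fold. Folds ran between 1.28 and 4.72.

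These counts rested on a few arrays. Treating the 15 treated arrays as 1 group with 1 mean left 0 genes called in limma, with 901 at an unadjusted p under 0.05 and a smallest adjusted p of 0.705. With abemaciclib 120 mg/kg/day left out of the average, 11 genes were called, and with its arrays left out of the fit, 6. Leaving out vehicle array A, B or C gave 46, 8 and 3 genes. Leaving out 1 treated array at a time gave between 63 and 236. With the actin difference as a covariate 166 genes were called, 129 of the 130 among them.

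**Figure D1:**
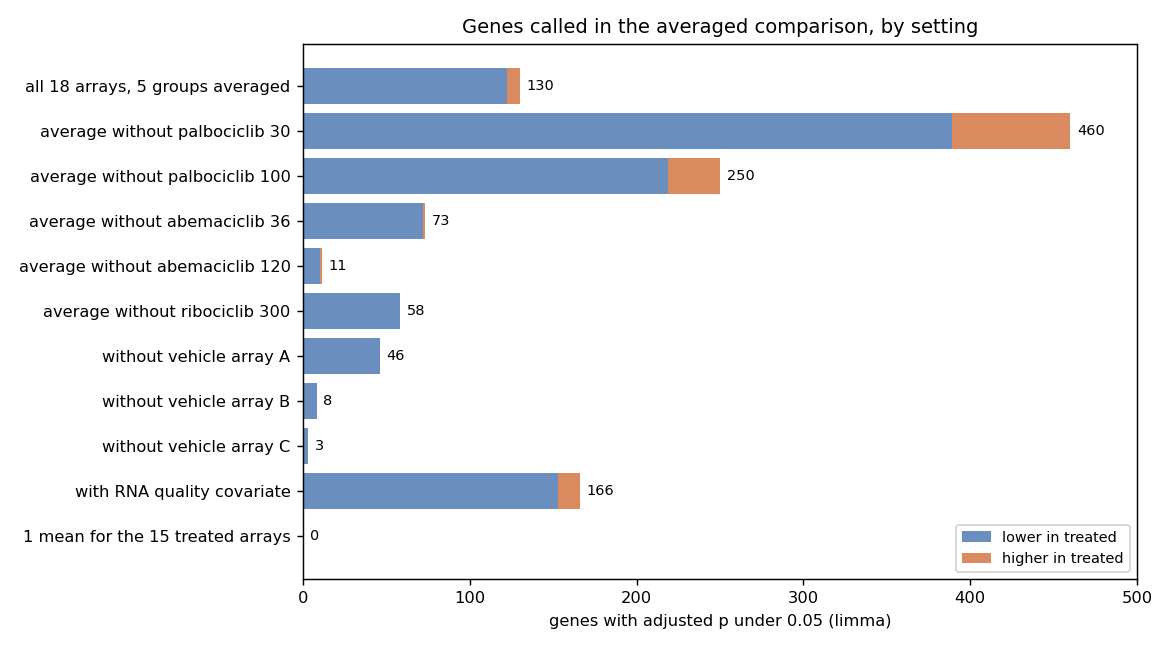
Number of genes with an adjusted p under 0.05 in limma in the averaged comparison (x axis, linear) under 11 settings, stacked by direction in treated arrays. The bars run between 0 genes, with 1 mean for the 15 treated arrays, and 460 genes, with palbociclib 30 mg/kg/day left out of the average. Leaving out abemaciclib 120 mg/kg/day or vehicle array B or C leaves 11, 8 and 3.

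Among all genes, 3737 (26.3%) differed from vehicle in the same direction in all 5 groups, 2050 negative (14.4%) and 1687 positive (11.9%). The 5 differences share the same 3 vehicle arrays, so a vehicle mean that is high or low by chance moves all 5 together. The split between directions also depended on the scaling. Positive genes were 45.1% of the same-sign genes as deposited, 53.9% after quantile normalization (1954 positive, 1672 negative) and 62.2% after centring each array on its median (2260 positive, 1374 negative). Of the 130 called genes 119 had 5 differences of the same sign, 114 of them lower and 5 higher. The other 11 were Cd8a, Ppargc1a, Plaur, Ppp1r15a, Klf10 and 6 further genes, with at least 1 group on the other side of vehicle. In 68 genes (0.478%) all 15 treated arrays lay below all vehicle arrays and in 20 (0.141%) above. The called genes held 26 of the genes below vehicle and 0 of those above.

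The size of the response differed between the treated groups. The 122 falling genes had a median difference from vehicle of -0.31 with palbociclib 30, -0.64 with palbociclib 100, -1.08 with abemaciclib 36, -1.61 with abemaciclib 120 and -1.10 with ribociclib 300 mg/kg/day. These medians are folds of 1.24, 1.56, 2.11, 3.05 and 2.14, and describe genes chosen on the average of the same groups. Abemaciclib 120 mg/kg/day gave the largest difference in 87 of the 130 called genes, ribociclib in 28 and abemaciclib 36 in 15. Palbociclib gave it in 0. Among the 119 same-sign genes the weakest difference was that of palbociclib 30 in 98, palbociclib 100 in 18 and abemaciclib 36 in 3.

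limma's F test found a difference among the 5 treated groups in 3366 genes (23.7%), and in 114 of the 130 called genes. The 130 were chosen in the same fit, and both tests use the same estimate of each gene's spread. A gene with a small spread therefore passes both more easily. With the actin difference as a covariate the F test found 1064 genes, 99 of the 130 among them. Without the covariate the other 16 did not pass it, Gas2l3, Xcl1, Jakmip1, Arl15 and Tmem252 among them, which does not show that the groups acted alike on these genes. The mean of the abemaciclib and ribociclib groups differed from the mean of the palbociclib groups in 1881 genes (13.2%), or in 1231 with the actin covariate. The called genes held 109 of the 1881 (104 genes with the covariate), and in all 109 the distance from vehicle was larger for abemaciclib and ribociclib. The called genes were chosen on an average in which these groups outnumber those of palbociclib. The choice itself therefore favoured that direction. The compounds were given at different doses and in different vehicles. Against vehicle, each group alone had 0 genes called for palbociclib 30, 0 for palbociclib 100, 296 (2.08%) for abemaciclib 36, 2560 (18%) for abemaciclib 120 and 531 (3.73%) for ribociclib 300 mg/kg/day. The mean of the 2 palbociclib groups had 0 genes called in limma (lowest adjusted p = 0.906), and 707 had an unadjusted p under 0.05.

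**Figure D2:**
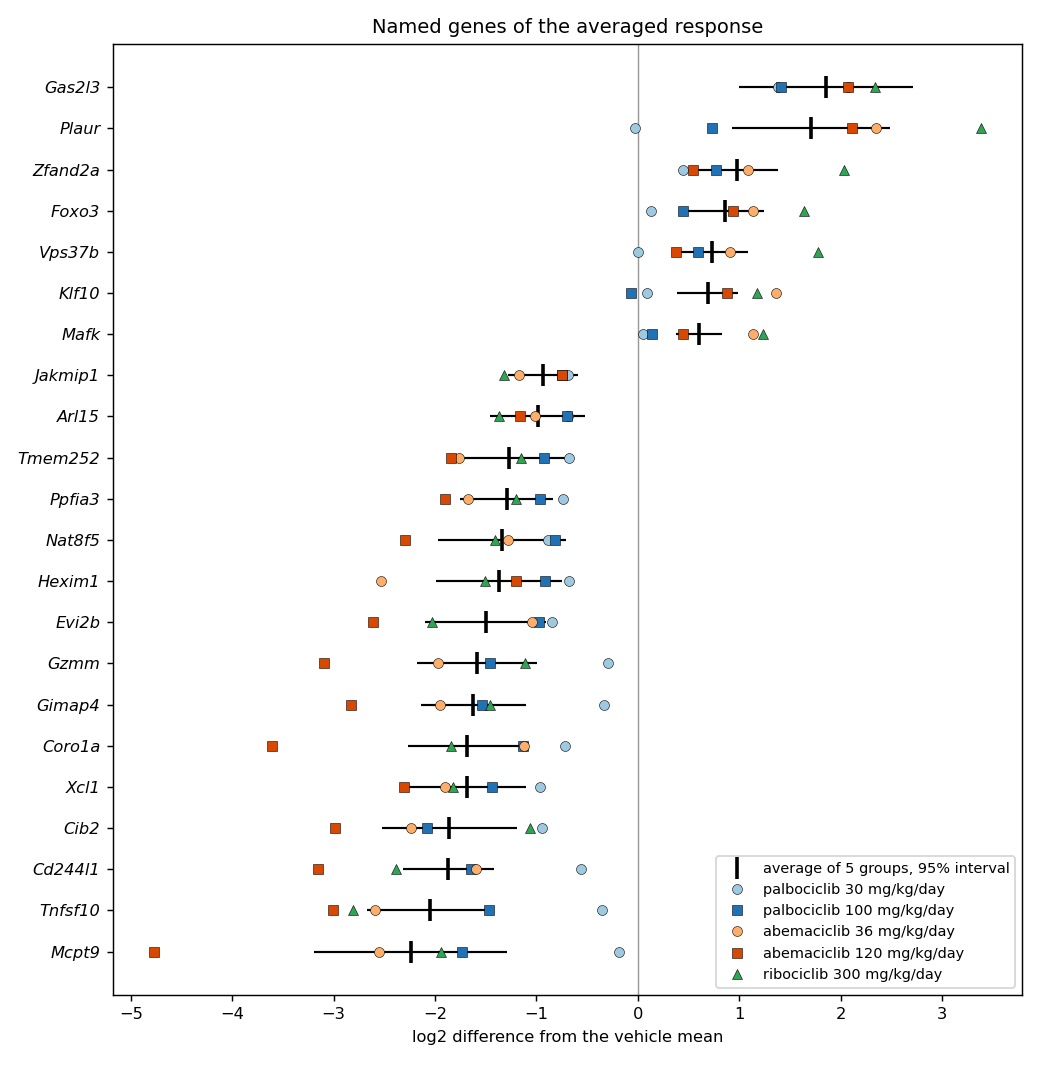
Log2 difference from the vehicle mean for 22 genes named for the size of their change (y axis), with 1 symbol per treated group (n = 3 arrays each) and the average of the 5 groups as a black tick with its 95% interval from limma. Palbociclib 30 mg/kg/day lies nearest to vehicle for most falling genes, and abemaciclib 120 mg/kg/day lies farthest for Mcpt9, Cd244l1, Coro1a and Gzmm. Plaur and Klf10 each have 1 palbociclib group just below 0.

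Genes of T and natural killer cells were lower, and more of them were called than of any other list described. Of 30 measured genes 7 fell and 0 rose, against 0.858% of all genes falling, and 22 had an unadjusted p under 0.05 and a negative difference, against 8.7% of all genes. The 7 were Nkg7, Lck, Xcl1, Gzmm, Cd8a, Cd3d and Itgae. The median difference of the list was -1.08, beside 0.01 for all genes. By group it was -0.14 with palbociclib 30, -0.91 with palbociclib 100, -1.15 with abemaciclib 36, -2.04 with abemaciclib 120 and -0.96 with ribociclib 300 mg/kg/day. Without abemaciclib 120 in the average it was -0.82, and with the actin covariate -1.08. In bulk tissue, fewer cells of a type and less RNA per cell cannot be told apart.

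The mean signal of the 30 genes was between 4.84 and 7.16 on the treated arrays, with a median of 6.12, against 6.87 to 7.09 on the vehicle arrays. It was 6.85 ± 0.27 with palbociclib 30, 6.21 ± 0.27 with palbociclib 100, 6.04 ± 0.11 with abemaciclib 36, 5.05 ± 0.22 with abemaciclib 120, 6.18 ± 0.65 with ribociclib 300 and 7.0 ± 0.12 with vehicle (SD, n = 3 each). Of the 15 treated arrays 14 lay below all vehicle arrays, and the exception was an array of palbociclib 30 mg/kg/day. The abemaciclib 120 arrays, which had the lowest mean, had actin differences of 0.86 to 1.05. The other treated arrays had 0.40 to 0.90, and of these only ribociclib array C (0.90) exceeded any abemaciclib 120 array. The next highest, abemaciclib 36 array C, had 0.80, and the highest vehicle array 0.79. The part of RNA quality in the low mean with abemaciclib 120 was not tested. The markers Cd2, Gzmk, Cd4 and Ncr1 had average differences between -0.06 and 0.05.

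Nkg7, a protein of the cytotoxic granules of lymphocytes, had signals between 5.38 and 7.50 on the treated arrays (median 6.47), against 8.08, 7.75 and 7.93 on vehicle arrays A, B and C. All 15 treated arrays lay below every vehicle array. It was 2.76-fold lower on average (-1.47, SE 0.18, 95% interval -1.85 to -1.08, adjusted p = 0.00198 in limma). Its group differences were -0.57 with palbociclib 30, -1.37 with palbociclib 100, -1.57 with abemaciclib 36, -2.44 with abemaciclib 120 and -1.39 with ribociclib 300 mg/kg/day.

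Cd244l1, a relative of the Cd244 receptor of natural killer cells, read 6.53, 6.72 and 7.47 with palbociclib 30 and 5.94, 6.23 and 5.31 with palbociclib 100. It read 5.81, 5.94 and 5.87 with abemaciclib 36, 4.00, 4.50 and 4.44 with abemaciclib 120 and 4.61, 5.16 and 5.49 with ribociclib 300 mg/kg/day, against 7.30, 7.61 and 7.49 with vehicle. One palbociclib 30 array lay within the vehicle range and the other 14 treated arrays lay below it. The average was 3.65-fold lower (-1.87, SE 0.21, adjusted p = 0.00148 in limma), and the group means with abemaciclib 120 and ribociclib 300, below the array medians, were not shown to be above background.

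Ccdc80, a secreted protein of the extracellular matrix, is in none of the gene lists and was singled out after its values were seen, because its call survived every omission of 1 array. It averaged 5.86 ± 0.26 with palbociclib 30, 5.16 ± 0.38 with palbociclib 100, 4.97 ± 0.24 with abemaciclib 36, 4.44 ± 0.17 with abemaciclib 120, 4.81 ± 0.21 with ribociclib 300 and 6.36 ± 0.17 with vehicle (SD, n = 3 each). All 15 treated arrays lay below the vehicle arrays. The fitted average was 2.48-fold lower (-1.31, SE 0.15, adjusted p = 0.00148 in limma), but all treated group means other than that of palbociclib 30 were below the array medians and not shown to be above background. The called genes Xcl1, Cib2, Cd8a, Evi2b, Ppfia3, Gzmm, Mcpt9, Nat8f5, Il1b, Adora2b and Fgr are given further on. Their folds also rest on at least 1 treated group mean below the array medians. The limit holds for some genes that were not called too. Hexim2, Flt3 and Cdk6 lay below the array medians in every group mean, vehicle included. Clec9a and Igtp did so with abemaciclib 120 mg/kg/day, among other groups for Clec9a. Cenpe did so in every group mean, vehicle included, other than that of abemaciclib 120 mg/kg/day.

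Nkg7, Cd244l1 and Ccdc80 were the 3 genes called in limma in all 18 fits that left out 1 array, with a highest adjusted p of 0.0404. Because they carry the most stable part of the averaged response, the 250 bases before their transcription starts are printed below, from RefSeq on the GRCr8 build, 5′ to 3′ on the gene's strand. Capitals mark matches, on either strand, to the letters TGTGGT (the core of RUNX sites), TGANTCA (AP-1 sites), TTTCCCGC (E2F sites) or CAGGAAG (ETS sites). The Nkg7 stretch lies at chr1:102981247-102981496 (+), that of Cd244l1 at chr13:86552199-86552448 (+) and that of Ccdc80 at chr11:69224845-69225094 (-).

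Nkg7: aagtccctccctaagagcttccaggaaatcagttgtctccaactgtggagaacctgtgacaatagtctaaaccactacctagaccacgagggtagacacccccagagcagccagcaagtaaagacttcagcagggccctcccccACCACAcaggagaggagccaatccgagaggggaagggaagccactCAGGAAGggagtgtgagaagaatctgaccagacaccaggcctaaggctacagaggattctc

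Cd244l1: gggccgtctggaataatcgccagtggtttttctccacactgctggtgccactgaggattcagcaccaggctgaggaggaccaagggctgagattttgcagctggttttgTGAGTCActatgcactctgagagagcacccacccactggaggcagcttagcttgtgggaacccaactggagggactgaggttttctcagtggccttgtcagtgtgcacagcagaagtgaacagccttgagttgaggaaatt

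Ccdc80: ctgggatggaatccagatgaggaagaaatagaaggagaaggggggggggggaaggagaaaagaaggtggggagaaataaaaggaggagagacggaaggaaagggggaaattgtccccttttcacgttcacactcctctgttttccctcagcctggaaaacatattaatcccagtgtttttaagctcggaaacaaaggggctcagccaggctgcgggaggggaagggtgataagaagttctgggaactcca

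The Nkg7 stretch holds 1 RUNX core, read on the opposite strand, and 1 ETS match, the Cd244l1 stretch holds 1 AP-1 match, and the Ccdc80 stretch holds none of the letters searched. RefSeq promoters were matched for 104 of the 122 falling genes. Of these 104, 12.5% held the RUNX core, 6.73% the AP-1 letters, 17.3% the ETS letters and 0% the E2F letters. Among the 11733 measured genes with a promoter the shares were 11.1%, 4.84%, 10.6% and 1.54%, and among all 27457 promoters of the same length 14.1%, 6.36%, 10.2% and 0.856%. A match of letters is not a bound site, and the shares carry no test.

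Lck, the kinase that starts T cell receptor signalling, ranged between 5.65 and 8.70 on the treated arrays (median 7.45), against 8.73 to 9.01 on the vehicle arrays, with no overlap. It was 2.74-fold lower (-1.45, SE 0.25, adjusted p = 0.0118 in limma). Xcl1, the chemokine lymphotactin, ranged between 4.16 and 6.59 on the treated arrays (median 4.67), against 6.26 to 6.73 on the vehicle arrays. One palbociclib 30 array overlapped with vehicle. Its average was 3.22-fold lower (-1.69, SE 0.27, adjusted p = 0.0118 in limma), and its weakest group difference, -0.96 with palbociclib 30 mg/kg/day, was the largest weakest difference of any falling gene named here.

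Cd8a, the CD8 alpha chain carried by most intraepithelial T cells, read 7.14, 7.15 and 7.72 with palbociclib 30 mg/kg/day, which overlaps with the 6.80, 6.96 and 7.24 of vehicle. On the other 12 treated arrays it lay between 4.66 and 6.21, below every vehicle array. The averaged fall was 2.34-fold (-1.22, SE 0.21, adjusted p = 0.0118 in limma), and the groups did not share a direction. Gzmm, which encodes granzyme M, was 3.0-fold lower (-1.59, SE 0.28, adjusted p = 0.0146 in limma), with 12 of 15 treated arrays below vehicle.

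**Figure D3:**
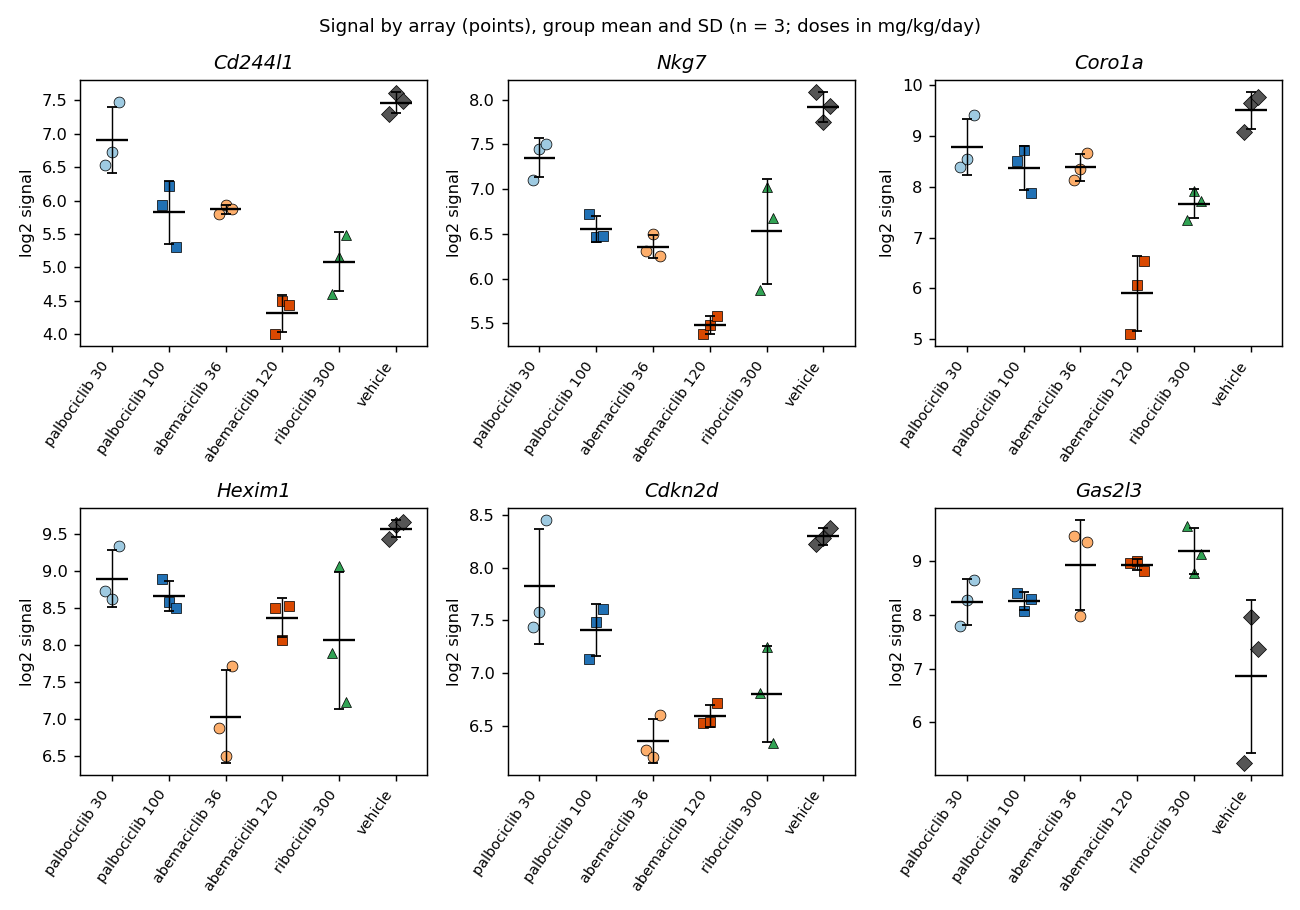
Log2 signal on each of the 18 arrays (points) with the group mean and SD (n = 3) for Cd244l1, Nkg7, Coro1a, Hexim1, Cdkn2d and Gas2l3. All 15 treated arrays lie below vehicle for Nkg7 and Hexim1 and 14 for Cd244l1, Coro1a and Cdkn2d. The 3 vehicle arrays of Gas2l3 spread between 5.25 and 7.96.

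Other genes of leukocytes fell too, named for the size of their change and not as members of the list. Coro1a, an actin regulator of leukocytes, ranged between 5.10 and 9.42 on the treated arrays (median 8.14), against 9.09 to 9.77 on the vehicle arrays, with 1 palbociclib 30 array overlapping. It was 3.21-fold lower (-1.68, SE 0.27, adjusted p = 0.0118 in limma), or -1.20 without abemaciclib 120 mg/kg/day in the average (adjusted p = 0.115). Gimap4, a GTPase of lymphocytes, was 3.08-fold lower (adjusted p = 0.00728 in limma), with 14 of 15 treated arrays below vehicle. Evi2b, a membrane protein of leukocytes, was 2.83-fold lower (adjusted p = 0.0226 in limma), and its differences in the palbociclib groups were -0.85 and -0.98.

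No marker of the macrophage, dendritic cell and B cell lists was called, beside 0.914% of all genes, a share at which lists this short may hold none. Of 24 genes of macrophages and dendritic cells 0 were called in either direction in limma, and 10 had an unadjusted p under 0.05 and a negative difference, against 8.7% of all genes. The median of that list was -0.57, and its direction was not shared by all groups. By group it was -0.34 with palbociclib 30, -0.63 with palbociclib 100, 0.14 with abemaciclib 36, -1.04 with abemaciclib 120 and -0.70 with ribociclib 300 mg/kg/day. Clec9a, a receptor of cross-presenting dendritic cells, averaged -1.44 (adjusted p = 0.0711 in limma), and Flt3, the receptor that drives dendritic cell development, -0.60 (adjusted p = 0.0612). The pan-leukocyte phosphatase Ptprc averaged -1.15 (adjusted p = 0.0816) and was 0.09 with palbociclib 30 mg/kg/day. Of 11 genes of B and plasma cells 0 were called in limma, and the median was -0.06. At an unadjusted p under 0.05, 1 was higher and 1 lower, against 3.71% and 8.7% of all genes.

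Of 10 genes of MHC class II presentation 0 were called in limma, beside 0.914% of all genes. At an unadjusted p under 0.05, 3 had a negative difference, against 8.7% of all genes. The list median was -0.55. It came to -0.17 without abemaciclib 120 mg/kg/day, the group with a median of -3.14, and the other groups lay between -0.33 and 0.17. Among 36 interferon-stimulated genes 0 were called in limma and 4 were lower at an unadjusted p under 0.05, with group medians of 0.15, -0.34, -0.45, -0.95 and 0.55 in the order palbociclib 30, palbociclib 100, abemaciclib 36, abemaciclib 120 and ribociclib 300 mg/kg/day. Igtp, an interferon-inducible GTPase, averaged -1.55 (adjusted p = 0.0503).

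**Figure D4:**
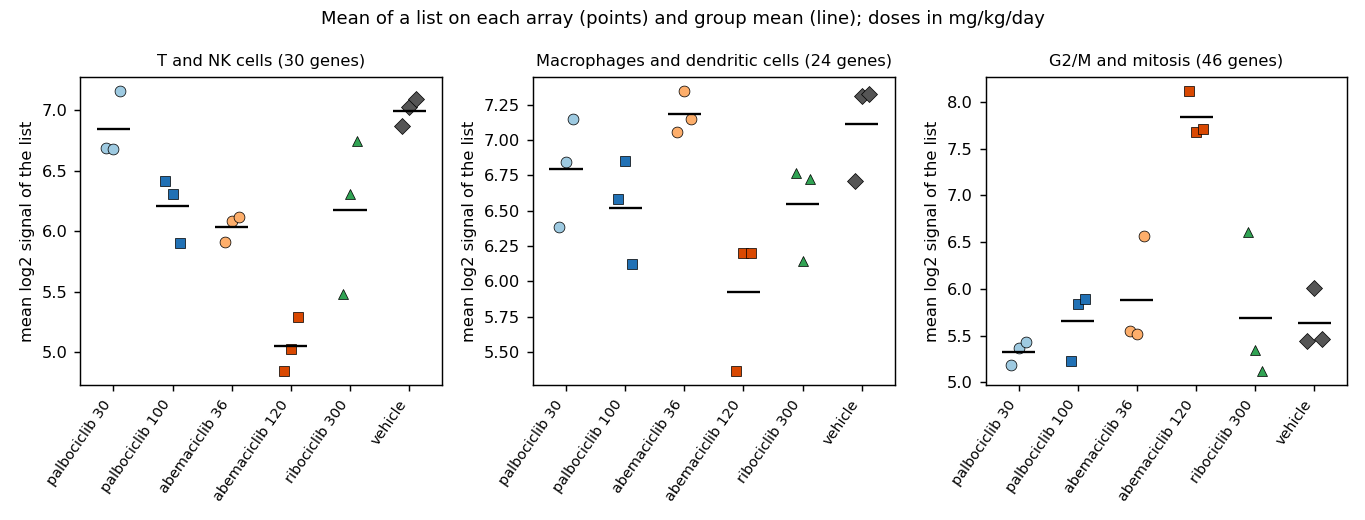
Mean log2 signal of 3 gene lists on each of the 18 arrays (points), with the group mean (line). The T and NK cell list lies below all vehicle arrays on 14 of 15 treated arrays and lowest with abemaciclib 120 mg/kg/day (5.05 on average, against 7.0 with vehicle). The macrophage and dendritic cell list overlaps with vehicle in several groups, and the G2/M list stands apart with abemaciclib 120 mg/kg/day (7.84, against 5.64 with vehicle).

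Mcpt9, a mast cell protease gene with close relatives that its probe set could also pick up, had the largest averaged fall. It read 8.86, 8.81 and 9.72 with palbociclib 30, 8.10, 8.12 and 6.52 with palbociclib 100, and 6.54, 7.19 and 6.56 with abemaciclib 36 mg/kg/day. It read 4.22, 4.28 and 5.15 with abemaciclib 120 and 5.76, 7.68 and 8.69 with ribociclib 300 mg/kg/day, against 9.05, 9.12 and 9.78 with vehicle. One palbociclib 30 array overlapped with vehicle. The fall was 4.72-fold (-2.24, SE 0.45, adjusted p = 0.031 in limma), or -1.61 without abemaciclib 120 mg/kg/day in the average (adjusted p = 0.191). Of the 19 measured mast cell and eosinophil genes Mcpt9 was the 1 called, against 0.858% of all genes called lower, and the list median was 0.01. At an unadjusted p under 0.05 in limma, 0 of the 19 were higher and 2 lower, against 3.71% and 8.7% of all genes.

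Tnfsf10, the death ligand TRAIL, ranged between 4.78 and 8.37 on the treated arrays (median 6.13), against 8.08 to 8.77 on the vehicle arrays. One palbociclib 30 array overlapped with vehicle and the other 14 treated arrays lay below it. It was 4.13-fold lower (-2.05, SE 0.29, adjusted p = 0.00593 in limma), and -1.81 without abemaciclib 120 mg/kg/day in the average (adjusted p = 0.0359). Of the 18 genes of p53 targets and death ligands, Tnfsf10 was the 1 called, and the list median was -0.02. At an unadjusted p under 0.05 in limma, 4 of the 18 were lower and 1 higher, against 8.7% and 3.71% of all genes. Sesn1, a p53 target that restrains growth signalling, averaged -0.93 (adjusted p = 0.0503 in limma). Il1b, the cytokine interleukin 1 beta, was 2.22-fold lower (adjusted p = 0.031 in limma), with differences of -2.21 with abemaciclib 120 and -2.50 with ribociclib 300 mg/kg/day and between -0.43 and -0.27 elsewhere. It was the 1 called of 15 interleukin 1 family genes, with 3 lower and 1 higher at that unadjusted p.

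The RNAs of the targets, CDK4 and CDK6, did not pass the test, and 1 gene of their regulators did. Of 18 genes for CDK4, CDK6, the D cyclins, the RB family and their inhibitors 1 fell, Cdkn2d, and 0 rose in limma, with a list median of -0.03. Over all genes 0.858% were called lower. At an unadjusted p under 0.05, 1 of the 18 was higher and 3 lower, against 3.71% and 8.7% of all genes. Cdkn2d read 7.43, 7.58 and 8.45 with palbociclib 30, 7.14, 7.49 and 7.61 with palbociclib 100, and 6.27, 6.21 and 6.60 with abemaciclib 36 mg/kg/day. It read 6.53, 6.54 and 6.72 with abemaciclib 120 and 6.81, 7.25 and 6.34 with ribociclib 300 mg/kg/day, against 8.23, 8.28 and 8.38 with vehicle. One palbociclib 30 array exceeded every vehicle array and the other 14 treated arrays lay below all of them. The fall was 2.46-fold (-1.30, SE 0.20, adjusted p = 0.00908 in limma) and was called without abemaciclib 120 in the average (-1.20, adjusted p = 0.0369).

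Cdkn1b, the gene of the CDK inhibitor p27, averaged -0.81 (adjusted p = 0.0999 in limma), with all 5 groups negative and 14 of 15 treated arrays below vehicle. Cdkn1c, the gene of p57, averaged -1.34 with an SE of 0.46 (adjusted p = 0.197). Its difference was -3.33 with abemaciclib 120 mg/kg/day, against -1.48 to -0.06 in the other groups. Cdk4 averaged 0.18 (adjusted p = 0.892) and had a positive difference of 1.81 with abemaciclib 120 mg/kg/day, against -0.51 to 0.32 in the other groups. Cdk6 averaged -0.06 (adjusted p = 0.842), with signals between 4.04 and 4.45 on the treated arrays, against 4.24 to 4.41 on the vehicle arrays. All of these signals lay below the array medians. Ccnd1, which encodes cyclin D1, averaged 0.72 (adjusted p = 0.506), with a difference of 2.34 for abemaciclib 120 mg/kg/day and between -0.10 and 0.69 for the other groups. Rb1 averaged -0.20 (adjusted p = 0.614) and Cdkn1a, the gene of p21, 0.33 (adjusted p = 0.491).

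No gene of the mitosis and DNA replication lists was called in the average, beside 0.914% of all genes, a share at which lists this short may hold none. Of 46 genes of G2/M and mitosis 0 were called in limma in the averaged comparison, with 15 positive at an unadjusted p under 0.05, against 3.71% of all genes. The list median was 0.48, and 0.03 without abemaciclib 120 mg/kg/day in the average. Its group medians were -0.28 with palbociclib 30, 0.04 with palbociclib 100, 0.22 with abemaciclib 36, 2.13 with abemaciclib 120 and 0.13 with ribociclib 300 mg/kg/day. All 46 genes passed the F test among treated groups, and 30 did with the actin covariate. Cenpe, a kinetochore motor, averaged 0.48 (adjusted p = 0.16), and Mki67, a marker of dividing cells, -0.11 with an SE of 0.49 (adjusted p = 0.959), and its sign turned in 5 of the alternative fits.

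Of 35 genes of G1/S and DNA replication 0 were called in limma and 4 were positive at an unadjusted p under 0.05. Over all genes 3.71% were higher and 8.7% lower at that p, the shares to set beside each list of this paragraph. The list median was 0.10, and -0.14 without abemaciclib 120 mg/kg/day. Orc1, a subunit of the origin recognition complex, was above all vehicle arrays on all 15 treated arrays, by an average of 0.35 at signals below the array medians (adjusted p = 0.113). Mcm10, a replication initiation factor, averaged 1.87 with an SE of 0.59 (adjusted p = 0.162). Ribosome biogenesis had a median of 0.33 over 31 genes, and -0.01 without abemaciclib 120 mg/kg/day, with 0 called in limma and 3 higher and 1 lower at an unadjusted p under 0.05. Of 14 crypt-base stem cell genes 0 were called and 2 were higher and 1 lower at that unadjusted p. Their median was 0.31, with 1.21 for abemaciclib 120 mg/kg/day and between -0.22 and 0.32 for the other groups. Lgr5, the receptor that marks these cells, averaged 0.24 (adjusted p = 0.402) and Axin2, a Wnt target, 0.57 (adjusted p = 0.403).

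Hexim1 encodes the protein that holds the elongation kinase P-TEFb, made of CDK9 and cyclin T, inactive on the 7SK RNA. It read 8.73, 8.61 and 9.33 with palbociclib 30, 8.88, 8.58 and 8.50 with palbociclib 100, and 6.88, 6.50 and 7.72 with abemaciclib 36 mg/kg/day. It read 8.50, 8.06 and 8.53 with abemaciclib 120 and 7.89, 9.06 and 7.22 with ribociclib 300 mg/kg/day, against 9.44, 9.61 and 9.65 with vehicle. All 15 treated arrays lay below all vehicle arrays, and abemaciclib 36 was lower than abemaciclib 120 on every array. The fall was 2.58-fold (-1.37, SE 0.29, adjusted p = 0.0412 in limma). It was called in 7 of the 18 fits that left out 1 array, and not without abemaciclib 120 mg/kg/day in the average (-1.41, adjusted p = 0.0979).

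Of the 22 measured genes of P-TEFb and 7SK control Hexim1 was the 1 called, against 0.858% of all genes called lower, and the list median was -0.12. At an unadjusted p under 0.05 in limma, 3 of the 22 were higher and 3 lower, against 3.71% and 8.7% of all genes. Hexim2, its paralog, averaged -0.46 (adjusted p = 0.162 in limma), with 13 of 15 treated arrays below vehicle. Mepce, which caps the 7SK RNA, averaged -0.67 (adjusted p = 0.217), with 14 of 15 arrays below. Cdk9 averaged 0.46 (adjusted p = 0.162), with 12 of 15 arrays above vehicle. Frat2, a regulator of the Wnt pathway, averaged -1.05 (adjusted p = 0.0632). Its differences were -3.28 with abemaciclib 36 and -2.14 with abemaciclib 120 mg/kg/day and between -0.21 and 0.25 with palbociclib and ribociclib.

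Other falling genes were named for the size of their weakest group difference. Cib2, a calcium- and integrin-binding protein, ranged between 4.01 and 6.88 on the treated arrays (median 5.74), against 7.13 to 7.42 on the vehicle arrays. All 15 treated arrays lay below vehicle. It was 3.63-fold lower (-1.86, SE 0.31, adjusted p = 0.0118 in limma). Jakmip1, a microtubule- and Janus kinase-interacting protein, ranged between 6.53 and 7.60 on the treated arrays (median 7.17), against 8.03 to 8.04 on the vehicle arrays. Its 3 vehicle arrays were almost identical and all 15 treated arrays lay below them, 1.91-fold on average (-0.93, SE 0.16, adjusted p = 0.015 in limma).

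Jakmip1 had group differences of -0.69 with palbociclib 30, -0.75 with palbociclib 100, -1.17 with abemaciclib 36, -0.74 with abemaciclib 120 and -1.32 with ribociclib 300 mg/kg/day. The largest of them was that of ribociclib, and the F test among treated groups was not passed (adjusted p = 0.0817). Nat8f5, of the N-acetyltransferase 8 family, was 2.53-fold lower (adjusted p = 0.0439 in limma), with all 15 treated arrays below vehicle. Ppfia3, a liprin scaffold protein, was 2.45-fold lower (adjusted p = 0.0118). Tmem252, a transmembrane protein gene, was 2.41-fold lower (adjusted p = 0.0399) and Arl15, a small GTPase, 1.98-fold lower (adjusted p = 0.0452).

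The metabolic genes Lrat and Ppargc1a fell in the average. Lrat, which esterifies retinol for storage and transport, was 2.54-fold lower (-1.34, SE 0.30, adjusted p = 0.0439 in limma), with all 5 groups negative and 13 of 15 treated arrays below vehicle. It was the 1 called of 22 retinoid and carotene genes, whose median was -0.20. Of the 22, 6 were lower and 0 higher at an unadjusted p under 0.05 in limma, against 8.7% and 3.71% of all genes. The mean signal of this list lay below all vehicle arrays on 14 of 15 treated arrays. Ppargc1a, a coactivator of mitochondrial genes, was 2.23-fold lower (-1.16, SE 0.22, adjusted p = 0.0253). Its differences were 0.35 and 0.22 with palbociclib 30 and 100 and -1.94, -1.96 and -2.47 with abemaciclib 36, abemaciclib 120 and ribociclib 300 mg/kg/day, so its directions were not shared. Ppargc1a was the 1 called of 24 genes of the fasting and glucocorticoid response, whose median was -0.21. At the same unadjusted p, 10 of the 24 were lower and 3 higher. The mean signal of these 24 genes lay below all vehicle arrays on 13 of 15 treated arrays and above them on 1. Angptl4, an inhibitor of lipoprotein lipase from that list, averaged -1.45 (adjusted p = 0.0818), with 14 of 15 treated arrays below vehicle.

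**Figure D5:**
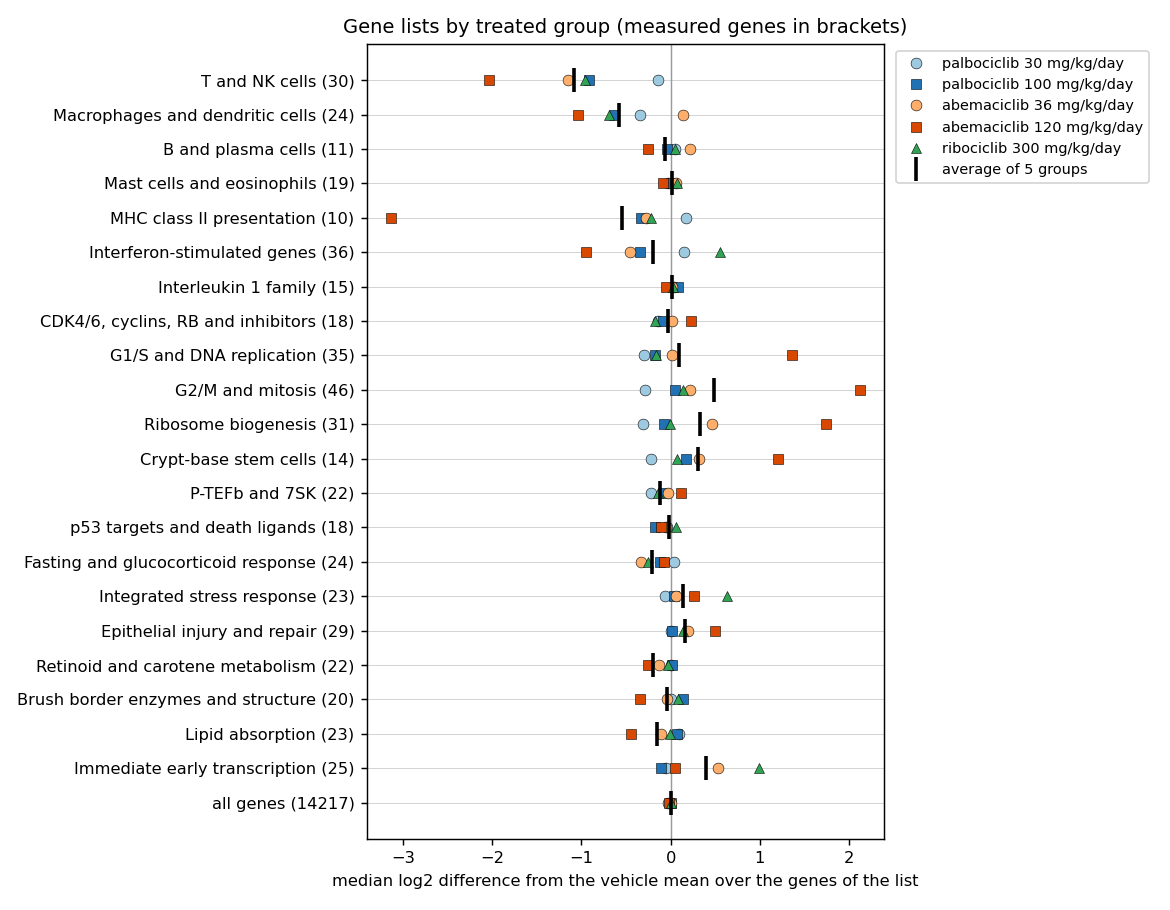
Median log2 difference from the vehicle mean over the measured genes of 21 lists and over all 14217 genes (y axis), by treated group (symbols) and for the average of the 5 groups (black ticks). T and NK cells have negative medians in all 5 groups, between -2.04 and -0.14. The medians of G2/M, G1/S, ribosome biogenesis and MHC class II lists lie far from 0 with abemaciclib 120 mg/kg/day and between -0.33 and 0.46 in the other groups.

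No gene of the absorptive enterocyte lists was called, beside 0.914% of all genes, a share at which lists this short may hold none. Of 20 genes of brush border enzymes and structure 0 were called in limma, 0 had an unadjusted p under 0.05, and the median was -0.04. Of 23 lipid absorption genes 0 were called, 2 were higher and 2 lower at an unadjusted p under 0.05, and the median was -0.16. Over all genes 3.71% were higher and 8.7% lower at that p. Acsl3, an acyl-CoA synthetase, averaged 0.55 (adjusted p = 0.341), and the fatty acid translocase Cd36 averaged -0.68 (adjusted p = 0.382), with -2.53 in abemaciclib 120 mg/kg/day.

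The 8 rising genes included 5 with positive differences in all 5 groups, namely Gas2l3, Zfand2a, Foxo3, Vps37b and Mafk. Gas2l3, which links actin and microtubules during cytokinesis, read 7.80, 8.29 and 8.65 with palbociclib 30, 8.41, 8.08 and 8.30 with palbociclib 100, and 9.47, 7.97 and 9.36 with abemaciclib 36 mg/kg/day. It read 8.98, 9.01 and 8.82 with abemaciclib 120 and 9.66, 8.79 and 9.14 with ribociclib 300 mg/kg/day, against 5.25, 7.96 and 7.37 with vehicle. Of the 15 treated arrays 14 lay above all vehicle arrays, and vehicle array A stood more than 2 log2 units below the other vehicle arrays. The rise was 3.63-fold (1.86, SE 0.41, adjusted p = 0.042 in limma), was 1.05 without vehicle array A, and was called in 6 of the 18 fits that left out 1 array.

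Zfand2a, a proteasome-associated zinc finger protein induced by arsenite, ranged between 9.71 and 12.02 on the treated arrays (median 10.52), against 9.32 to 9.86 on the vehicle arrays. Of the 15 treated arrays 13 lay above vehicle, and the ribociclib arrays were the highest. It rose 1.97-fold (0.98, SE 0.19, adjusted p = 0.0297 in limma). Foxo3, a forkhead transcription factor of the stress and starvation response, ranged between 10.06 and 12.35 on the treated arrays (median 11.33), against 10.25 to 10.65 on the vehicle arrays. In 13 treated arrays it lay above vehicle and in 1 palbociclib 30 array below. It rose 1.81-fold (0.86, SE 0.18, adjusted p = 0.039 in limma).

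Mafk, a small Maf partner of NRF2-type factors, rose 1.52-fold (0.60, SE 0.11, adjusted p = 0.0153 in limma). Its differences were 0.05 with palbociclib 30, 0.14 with palbociclib 100, 1.14 with abemaciclib 36, 0.45 with abemaciclib 120 and 1.24 with ribociclib 300 mg/kg/day. It was the 1 rise called without abemaciclib 120 in the average (0.64, adjusted p = 0.0369). Vps37b, a subunit of the ESCRT-I sorting complex, rose 1.66-fold (adjusted p = 0.0479), and its difference with palbociclib 30 mg/kg/day was 0.0034. It was called in 4 of the 18 fits that left out 1 array, and 1 of its 2 further probe sets had the same sign.

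Plaur, Ppp1r15a and Klf10 rose on average without a shared direction. Plaur, the urokinase receptor, ranged between 6.54 and 11.04 on the treated arrays (median 8.86), against 6.82 to 7.56 on the vehicle arrays. The ribociclib arrays were the highest and those of palbociclib 30 mg/kg/day overlapped with vehicle. The rise was 3.28-fold (1.71, SE 0.37, adjusted p = 0.0416 in limma), and Plaur was the 1 called of 29 epithelial injury and repair genes. Of those 29, 6 were higher and 1 lower at an unadjusted p under 0.05, against 3.71% and 8.7% of all genes. Ppp1r15a, the stress-induced subunit that directs a phosphatase to eIF2 alpha, rose 2.51-fold (1.33, SE 0.29, adjusted p = 0.042). It was the 1 called of 23 integrated stress response genes, with 3 higher and 0 lower at that unadjusted p. The difference of Ppp1r15a was -0.08 with palbociclib 30 and 2.76 with ribociclib 300 mg/kg/day.

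Klf10, a zinc finger factor induced by TGF-beta, rose 1.61-fold (0.69, SE 0.14, adjusted p = 0.0345 in limma), with differences of 0.09 and -0.07 in the palbociclib groups and between 0.88 and 1.37 in the others. Of 25 immediate early genes 0 were called in limma, beside 0.914% of all genes. At an unadjusted p under 0.05, 3 were higher, against 3.71% of all genes. Egr1, a serum-induced zinc finger factor, averaged 1.46 with an SE of 0.48 (adjusted p = 0.175), with differences of -0.52 and -0.23 in the palbociclib groups and between 2.42 and 2.98 in the others. Ly6al averaged 2.96 with an SE of 0.89 (adjusted p = 0.136), the largest average among the genes named here, with 5.63 in abemaciclib 120 and 5.56 in ribociclib 300 mg/kg/day.

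When abemaciclib 120 mg/kg/day was left out of the average, 11 genes were called, all of them among the 130. They were Cd244l1, Nkg7, Ccdc80, Cdkn2d, Tnfsf10, Jakmip1, Mafk, Adora2b, Fgr, Gpsm2 and Trim32, and the last 4 were singled out after their values were seen. Adora2b, an adenosine receptor, was 2.29-fold lower over all 5 groups (adjusted p = 0.00593 in limma). Fgr, a Src-family kinase of myeloid cells, was 2.50-fold lower (adjusted p = 0.00593), with all 15 treated arrays below vehicle. Gpsm2, which orients the mitotic spindle, was 2.02-fold lower (adjusted p = 0.00593), and Trim32, a ubiquitin ligase, 2.32-fold lower (adjusted p = 0.00593). Trim32 had differences of -0.18 and -0.31 in the palbociclib groups and between -2.0 and -1.79 in the other groups.

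Of the 130 called genes 39 had further probe sets, 58 in all. Of these 58, 48 had an average difference of the same sign as the probe set used.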

How the data were processed

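Jejunal RNA was measured on 18 arrays. The values the authors deposited are log2 signals from 2.86 to 14.34, with 1 value for each probe set on each array. The submitters' processing notes name RMA together with Transcriptome Analysis Console and Affymetrix Expression Console. Versions and settings are not given in the sources used here. RMA as usually run makes the signal distributions of arrays alike, so a change in total RNA per cell is not visible. Arrays carry no read depth, and their number limits the precision.

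Groups came from the treatment label. Of 31099 probe sets, 57 controls, 436 with several symbols and 9780 unnamed in the platform annotation were left out. The brightest of the 20826 with 1 symbol was kept per gene, which left 14217 genes. Correlations between arrays lay between 0.91 and 0.993, and no 2 arrays were identical. limma 3.58.1 in R 4.3.3 fitted 1 mean per group over all arrays (eBayes with an intensity trend, 12 residual degrees of freedom), and two-sided p-values were adjusted by Benjamini and Hochberg over all genes. The fit was tested on simulated data. Tables and figures were made in Python 3.11.15 (numpy 2.4.6, pandas 2.3.3, matplotlib 3.10.9).

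The genes and the 42 gene lists, 21 of them described, were chosen with earlier results of these data known. Named were, among called genes of 1 sign without placeholder symbols, the 10 with the largest weakest-group difference and the 8 with the largest average in each direction (where fewer passed, also the 5 with the smallest p), up to 4 members per described list with the smallest p, and Cdk4, Cdk6, Ccnd1, Rb1, Mki67, Cdkn1a, Cdkn1b, Cdkn2d, Frat2, Hexim1, Axin2 and Lgr5.

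The alternatives were quantile normalization, median centring, a filter on dim genes (mean signal under percentile 30), the mean of probe sets, every probe set, no trend, 1 mean for all treated arrays, equal weight per compound, leaving out each treated group, the replicate letter as a block, the actin covariate and leaving out each array. The fit without the abemaciclib 120 arrays was added after seeing the data.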

Additional observations from a re-analysis of the deposited data

Results flagged for a closer look

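The averaged comparison covers groups that often differed from each other, and each value here is an adjusted p of limma's F test among the 5 treated groups. In all, 3366 genes differed among these groups, and 56 of the 78 named genes that were not called in the average did so. With the actin covariate these counts were 1064 and 36. Of the called genes given here, Nat8f5 did not pass the F test with that covariate (adjusted p = 0.144), and the others did. Among the falling leukocyte genes the p was 0.000213 for Cd244l1, 0.000212 for Cd8a, 0.000400 for Coro1a, 0.000904 for Nkg7, 0.00141 for Lck, 0.000809 for Gzmm, 0.000957 for Gimap4 and 0.00600 for Evi2b. In the other falling genes it was 0.000934 for Mcpt9, 0.000765 for Tnfsf10, 0.00017 for Il1b, 0.00384 for Cdkn2d, 0.0125 for Hexim1, 0.00685 for Cib2, 0.0436 for Nat8f5, 0.0228 for Ppfia3, 0.00256 for Lrat and 2.58e-05 for Ppargc1a. Among the rising genes it was 8.78e-05 for Mafk, 0.000213 for Klf10, 0.000485 for Vps37b, 0.000934 for Plaur, 0.00137 for Ppp1r15a, 0.00189 for Zfand2a and 0.00205 for Foxo3. The groups differ in compound, dose and vehicle, and their part in these differences cannot be told apart.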

How the results depend on the processing

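The 130 called genes became 82 after quantile normalization (10 higher, 72 lower), 59 with median centring (5 higher, 54 lower), and 0 with 1 mean for the 15 treated arrays. Leaving a group out of the average gave 460 without palbociclib 30 (71 higher, 389 lower), 250 without palbociclib 100 (31 higher, 219 lower), 73 without abemaciclib 36 (1 higher, 72 lower), 11 without abemaciclib 120 (1 higher, 10 lower) and 58 without ribociclib 300 (0 higher, 58 lower). With the abemaciclib 120 arrays out of the fit, an alternative chosen after seeing the data, 6 were called (0 higher, 6 lower). Higher genes numbered 14 with compounds weighted equally and 13 with the actin covariate. That covariate left 1064 genes that differed among treated groups and 1231 between abemaciclib or ribociclib and palbociclib. Called genes of 1 sign were 72 after quantile normalization and 48 with centring. Genes with 5 positive differences were 822 without dim genes and 2698 with every probe set, where the number of features tested changed. The other alternatives kept these counts within 1.5 times. The cause of these changes was not tested.

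Leaving out 1 array gave 3 to 236 called genes (0 to 21 higher, 3 to 221 lower), 3 to 221 of 1 sign, 1703 to 4321 that differed among treated groups, 1151 to 2485 between the compound means, 1839 to 2573 with 5 negative and 1489 to 2246 with 5 positive differences, and 0 to 2 for palbociclib. The lowest counts came without vehicle arrays, 46, 8 and 3 without A, B or C. With the letter as a replicate block 150 genes were called (114 of the 130). The labels tie no letter to a shared origin, so the letters were not used to pair arrays. Over 45 same-letter pairs the correlation of deviations had a median of 0.0516 and a highest value of 0.593, against a median of -0.041 between arrays of other letters, and 19 were over 0.1.

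Signs turned for genes that were not called. The brush border enzyme genes Ace and Treh averaged 0.054 and 0.052 without abemaciclib 120 in the average, as with its arrays out of the fit, and Cdk4 averaged -0.23. Mki67 averaged 0.024 after quantile normalization, 0.16 without ribociclib in the average, 0.23 without vehicle array A (-0.33 without vehicle array C), 0.0092 without palbociclib 30 array A and 0.052 without ribociclib array C.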

Other observations

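Hexim1 and Mafk differed more from vehicle at the lower abemaciclib dose. Hexim1 was lower with abemaciclib 36 mg/kg/day (7.03 ± 0.62) than with 120 mg/kg/day (8.37 ± 0.26, SD, n = 3 each), against 9.57 ± 0.12 with vehicle, and Mafk was higher (11.04 ± 0.12 with 36 and 10.34 ± 0.16 with 120 mg/kg/day, against 9.90 ± 0.10 with vehicle). Pdk4, a kinase that restrains pyruvate oxidation, had differences of -3.23 and -1.92 at these doses, without a call in the average (adjusted p = 0.13 in limma). The difference between the doses was not tested here for these genes.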
